A study of Mus musculus with 16 samples.

Results

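CD8+ and CD4+ tumor-infiltrating lymphocytes (TILs) of *Sirt2*-/- mice were compared, using the 4 CD8+ and the 4 CD4+ Sirt2KO libraries, which are 8 of the 16 libraries of the series. They were chosen by genotype and cell type as labelled, and a repeat left out CD4+ Sirt2KO replicate 4, a library with fewer than 15000 detected genes, so that 4 CD8+ libraries stood against 3 CD4+ libraries. The other 8 libraries, with the same cell types and numbers from WildType mice, served to ask which lineage differences were gained or lost. The TILs came from hosts of 7 to 8 weeks of age bearing s.c. tumors grown from the C57BL/6 melanoma line B16F10. The Sirt2KO hosts carried the germline deletion B6.129-Sirt2tm1.1Fwa/J in every cell, so that tumor-associated host cells lacked *Sirt2* as well, whereas the tumor line itself did not carry the deletion. WildType hosts were C57BL/6J mice. The labels name no treatment, and total RNA was sequenced after enrichment of T cells with CD3 microbeads. How CD4+ and CD8+ cells were then separated, and whether each library is 1 animal, is not given in the sources used here. The p-values below therefore measure the spread between these libraries.

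CD4+ and CD8+ T cells arise from a common thymic precursor, and their coreceptors bind MHC class II and class I, respectively. ThPOK (*Zbtb7b*) maintains the CD4 program and *Runx3* the CD8 program. In tumors, CD8+ TILs are the main carriers of granule cytotoxicity, and the CD4+ compartment mixes helper cells with regulatory T (Treg) cells that express *Foxp3*. SIRT2 is an NAD-dependent deacetylase of the sirtuin family.

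Total counts on genes ranged from 39397812 to 62407851 in the 8 Sirt2KO libraries. Values below are CPM, which scale the counts of a gene to the TMM-adjusted total of its library. Each SE comes from the test statistic and includes the spread between libraries. Floors cover counting error only, and the reads carry no molecular identifiers. At least 1 count was found on 18844 to 22138 genes in 7 of the Sirt2KO libraries and on 8169 genes in CD4+ replicate 4, which had the highest total. Neither the total (two-sided exact permutation p = 1) nor the number of detected genes (p = 0.23) differed between the lineages beyond the spread, where 4 libraries against 4 allow no p below 0.029. Among WildType libraries, CD4+ replicate 1 had 12587 and CD8+ replicate 1 had 14411 detected genes. *Sirt2* measured 9.11, 10.3, 6.53 and 7.21 CPM in CD8+ and 12.2, 10.2, 10.6 and 0 CPM in CD4+ Sirt2KO replicates 1 to 4, against 33.4 to 75.6 CPM in the 8 WildType libraries. The residual *Sirt2* signal did not differ between the lineages beyond the spread (log2 fold change -0.02 ± 1.42, SE, over all 8 libraries). That fit holds the 0 of CD4+ replicate 4. Without this library, CD4+ values of 10.2 to 12.2 CPM overlapped only narrowly with CD8+ values of 6.53 to 10.3 CPM, and *Sirt2* was not called either. The Y-linked gene *Ddx3y* was at 0 to 0.452 CPM in all 8 Sirt2KO libraries and at 2.18 to 121 CPM in WildType libraries, so that genotype and the sex make-up of the hosts cannot be told apart in any comparison between genotypes, whereas within Sirt2KO both lineages were at or near 0.

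The defining markers of both lineages were measured as labelled. *Cd4* (ENSMUSG00000023274.14; chromosome 6, 124864692 to 124888221, - strand, GRCm38), the coreceptor for MHC class II, measured 486, 598, 538 and 384 CPM in CD4+ Sirt2KO replicates 1 to 4, against 1.75, 3.97, 1.84 and 4.93 CPM in the CD8+ replicates. *Cd8a* (ENSMUSG00000053977.13; chromosome 6, 71373427 to 71379173, + strand), the coreceptor for MHC class I, measured 1013, 1003, 1261 and 1128 CPM in the CD8+ replicates and 10.2, 11.3, 33.4 and 14.1 CPM in the CD4+ replicates. *Cd8b1*, the beta chain of that coreceptor, measured 756.6, 615.3, 784.9 and 563.5 CPM in CD8+ and 12.05, 14.6, 26.7 and 60.8 CPM in CD4+ libraries. No CD8+ library overlapped a CD4+ library in any of these 3 genes, and CD4+ replicate 4, with few genes detected, carried the coreceptor of its label. The log2 fold changes of CD8+ over CD4+ TILs were -7.35 ± 0.44 (SE; adjusted p = 0.00063) for *Cd4*, 5.99 ± 0.45 (adjusted p = 0.0013) for *Cd8a* and 4.58 ± 0.54 (adjusted p = 0.0053) for *Cd8b1*, by edgeR's quasi-likelihood test with Benjamini-Hochberg adjustment.

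The lineage factors separated the same libraries. *Zbtb7b* measured 5.17, 5.85, 3.95 and 6.95 CPM in CD8+ and 48.1, 42.5, 54.0 and 51.9 CPM in CD4+ replicates 1 to 4, a log2 fold change of -3.18 ± 0.36 (adjusted p = 0.0043). *Runx3* measured 315, 341, 329 and 305 CPM in CD8+ and 156, 202, 209 and 232 CPM in CD4+ libraries, with no overlap and a log2 fold change of 0.68 ± 0.13 (adjusted p = 0.039). *Foxp3* (ENSMUSG00000039521.13; chromosome X, 7573644 to 7595245, + strand), which specifies Treg cells, measured 306, 497, 671 and 393 CPM in CD4+ and 2.56, 4.02, 3.20 and 6.77 CPM in CD8+ libraries, a log2 fold change of -6.83 ± 0.43 (adjusted p = 0.00063). *Maf* (ENSMUSG00000055435.6; chromosome 8, 115682942 to 115707794, - strand), a transcription factor of cytokine programs in helper and regulatory T cells, measured 211, 358, 355 and 331 CPM in CD4+ and 10.2, 15.1, 12.2 and 12.7 CPM in CD8+ libraries. *Maf* had the smallest adjusted p over all 8 libraries (log2 fold change -4.66 ± 0.23, adjusted p = 0.00023). In the fit without replicate 4 it was 25.2-fold higher in CD4+ TILs. In bulk RNA, fewer cells of a type and less RNA of a gene per cell cannot be told apart.

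**Figure D1:**
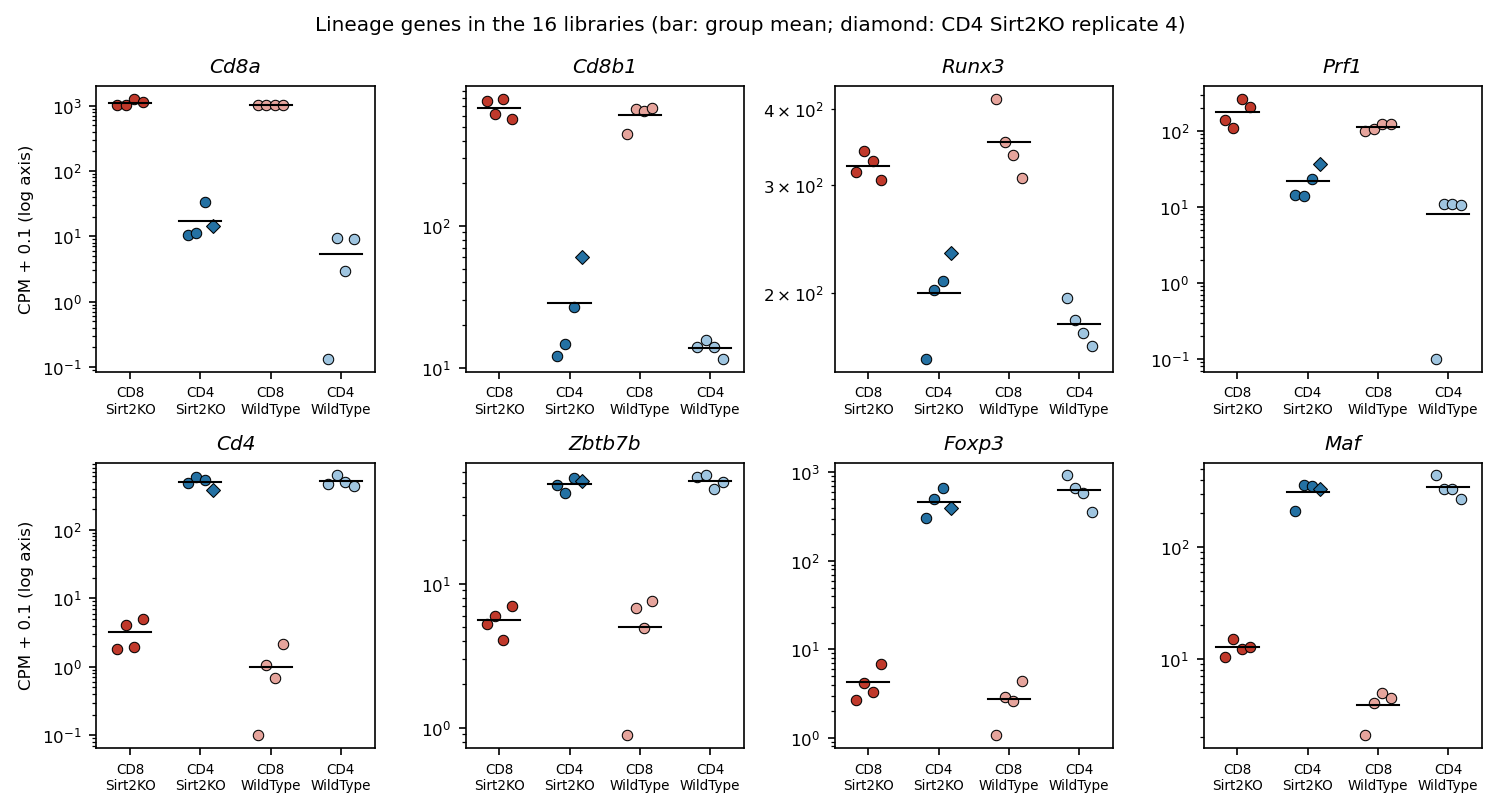
Level (CPM plus 0.1, log axis) of the coreceptors, lineage factors and perforin in each of the 16 libraries, by cell type and genotype, 1 point per library with a bar at the group mean and a diamond for CD4+ Sirt2KO replicate 4. *Cd4*, *Zbtb7b*, *Foxp3* and *Maf* are higher in every CD4+ than in any CD8+ library, and *Cd8a*, *Cd8b1*, *Runx3* and *Prf1* are higher in every CD8+ library.

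Over all 8 Sirt2KO libraries, 354 of 15787 genes tested were called at an adjusted p below 0.05. Of these, 145 were higher in CD8+ TILs (0.918% of genes tested) and 209 were higher in CD4+ TILs (1.32%), and 1842 genes had an unadjusted p under 0.05. Without CD4+ replicate 4, 4250 of 16703 genes were called, 2310 higher in CD8+ (13.8%) and 1940 higher in CD4+ TILs (11.6%). All 354 genes were among the 4250, of which they are 8.33%, with the same sign. The median SE of the log2 fold change over all genes tested was 1.24 with and 0.27 without that library, and the median log2 fold change was 0.16 and -0.004. Over all 8 libraries, the 4 CD8+ values lay entirely above the 4 CD4+ values for 2524 genes (16% of genes tested) and entirely below them for 982 genes (6.22%).

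CD4+ replicate 4 itself was compared with the genes called without it, a library those calls did not use. It lay on the CD4+ side of the CD8+ mean for 952 of the 1940 genes higher in CD4+ TILs (49.1%) and for 1829 of the 2310 genes higher in CD8+ TILs (79.2%). It had no count for 569 of the former (29.3%) and 830 of the latter (35.9%), and a 0 places a library on the lower side whatever its cell type. Where the mean reached at least 3000 counts, and where replicate 4 was at 0 for 4 and 13 genes, it lay on the CD4+ side for 483 of 666 (72.5%) and 513 of 709 (72.4%). These shares have no value to set them against, since the genes were called with the same CD8+ libraries that replicate 4 is measured from. Counts of called members of the gene lists below are given without replicate 4 and with it. They stand against shares over all genes tested of 13.8% higher in CD8+ and 11.6% higher in CD4+ TILs without it. With it, these shares are 0.918% and 1.32%, and a count near such a share says nothing about its list.

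**Figure D2:**
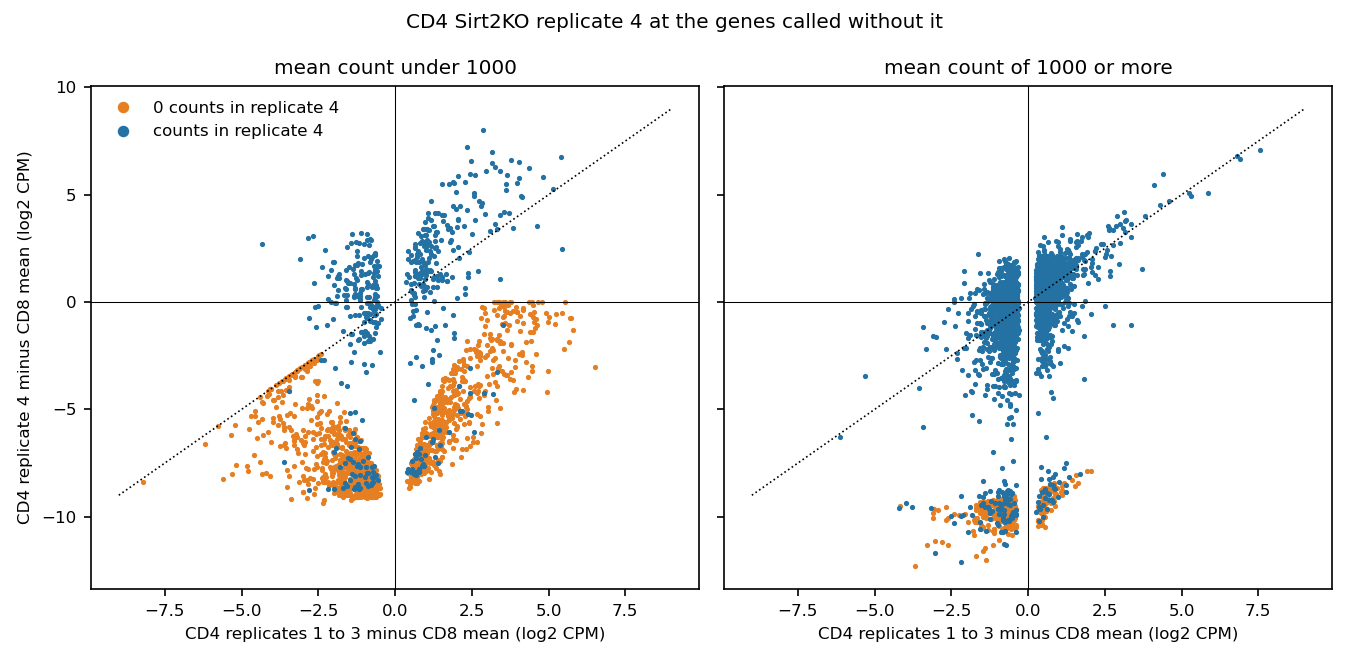
Genes called without CD4+ Sirt2KO replicate 4, with the log2 CPM of replicate 4 minus the CD8+ mean (vertical) against the log2 CPM of CD4+ replicates 1 to 3 minus the CD8+ mean (horizontal), for genes with a mean count under 1000 (left) and of 1000 or more (right), and a dotted line of equality. Genes with 0 counts in replicate 4 (orange; 29.3% of those higher in CD4+ and 35.9% of those higher in CD8+ TILs) lie low on both sides, and most abundant genes lie on the same side of 0 on both axes.

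Without CD4+ replicate 4, CD8+ Sirt2KO TILs had higher levels of cytotoxic, NK-type receptor, chemokine and cell cycle genes. Ribosome biogenesis genes, a list chosen after its values were seen, were also higher without that library. Of 8 factors of the CD8 lineage, 5 were called higher in CD8+ TILs over all 8 libraries and 6 without replicate 4, among them *Eomes* and *Tbx21*, T-box factors of effector and memory cells. *Eomes* measured 232, 210, 209 and 404 CPM in CD8+ and 22.4, 12.03, 37.3 and 15.7 CPM in CD4+ replicates 1 to 4, a log2 fold change of 3.58 ± 0.41 (adjusted p = 0.0048). *Tbx21* measured 53.9, 59.5, 69.5 and 68.5 CPM in CD8+ and 14.0, 22.2, 27.9 and 91.8 CPM in CD4+ libraries. CD4+ replicate 4 exceeded every CD8+ library in *Tbx21*, and its log2 fold change was 1.52 ± 0.21 (adjusted p = 0.00073) without and 0.69 ± 0.53 (adjusted p = 0.81) with that library. *Prdm1*, the gene of the repressor Blimp-1, was the 1 member of the list higher in CD4+ TILs (-1.22 ± 0.27, adjusted p = 0.010 without replicate 4).

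Of 19 cytotoxic effectors tested without replicate 4, 10 were higher in CD8+ and 1 was higher in CD4+ TILs, with a median log2 fold change of 1.73. *Prf1*, the pore-forming perforin, measured 139, 107, 262 and 203 CPM in CD8+ and 14.3, 13.6, 23.2 and 36.8 CPM in CD4+ replicates 1 to 4. It did not overlap between the lineages and was called with replicate 4 (log2 fold change 3.01 ± 0.41, adjusted p = 0.0096) and without it (3.35 ± 0.37). *Nkg7*, a granule membrane protein, measured 182, 223, 262 and 206 CPM in CD8+ and 20.6, 22.9, 39.3 and 0.018 CPM in CD4+ libraries, where the last value is 1 read of replicate 4. Its log2 fold change was 2.95 ± 0.24 (adjusted p = 8.7e-05) without replicate 4, and it was not called over all 8 libraries. The granzyme *Gzmk* was 1.73 ± 0.18 higher on the log2 scale and the protease *Ctsw* 2.15 ± 0.14 higher without replicate 4, whereas *Gzmb* had a log2 fold change of 1.03 ± 0.62 (adjusted p = 0.29) and was not called. *Gzmf* measured 16.2, 5.58, 19.5 and 7.93 CPM in CD8+ and 0.309, 0.591, 0.226 and 0 CPM in CD4+ libraries (4.997 ± 0.58 without replicate 4). The granzymes c to g are close copies of each other, so that reads could be split between them. *Srgn*, the proteoglycan of cytotoxic granules, was the 1 cytotoxic list member higher in CD4+ TILs (-0.58 ± 0.18, adjusted p = 0.045). With replicate 4, 2 of 18 members tested were called, both higher in CD8+ TILs.

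NK-type receptors, which tune T cell activation through ligands such as nonclassical MHC molecules, were among the groups with the largest median. Of 25 tested without replicate 4, 13 were higher in CD8+ and 1 was higher in CD4+ TILs, with a median of 1.76 on the log2 scale. Their summed level was 619 to 1016 CPM in CD8+ and 131 to 283 CPM in CD4+ libraries, with no overlap. *Klrc1* (NKG2A), an inhibitory receptor, measured 144, 160, 251 and 227 CPM in CD8+ and 9.40, 19.9, 29.6 and 3.35 CPM in CD4+ replicates 1 to 4. It was the 1 receptor of the list called over all 8 libraries (log2 fold change 3.63 ± 0.63, adjusted p = 0.026). *Klrd1* (CD94), its partner chain, was 2.75 ± 0.18, the adhesion receptor *Crtam* 2.79 ± 0.17 and *Cd160* 2.83 ± 0.44 higher in CD8+ TILs on the log2 scale without replicate 4. *Klrg1* differed in the other direction (-2.81 ± 0.32, adjusted p = 0.00017), with means of 1.89 CPM in CD8+ and 9.75 CPM in CD4+ libraries, and it also stands on the Treg list.

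Of 10 chemokine genes, 4 were called without replicate 4, all higher in CD8+ TILs: *Ccl3* (2.22 ± 0.31 on the log2 scale), *Ccl4* (3.02 ± 0.38) and *Ccl5* (1.73 ± 0.20), which attract leukocytes, and *Xcl1* (2.45 ± 0.56), the ligand of the receptor of cross-presenting dendritic cells. *Ccl5* was the most abundant, with 445, 389, 575 and 315 CPM in CD8+ and 148, 113, 119 and 29.8 CPM in CD4+ replicates 1 to 4. In replicate 4 all chemokines together came to 29.8 CPM, against 150 to 183 CPM in the other CD4+ libraries. With it none of 9 was called by edgeR, and *Ccl5* had an adjusted p of 0.060. Of 15 cytokine genes, 3 were higher in CD8+ TILs without replicate 4: *Ifng* (2.32 ± 0.40), *Tnf* (0.84 ± 0.16) and *Flt3l* (1.31 ± 0.22). Another 4 were higher in CD4+ TILs: *Il10* (-2.93 ± 0.55), *Il16* (-0.66 ± 0.15), *Tgfb1* (-0.44 ± 0.12) and *Il4* (-4.39 ± 1.40), of which *Il4* averaged under 1 CPM in both lineages. *Ifng* measured 7.26, 9.45, 14.6 and 20.9 CPM in CD8+ and 1.63, 3.40, 2.62 and 0 CPM in CD4+ libraries, and none of the 13 cytokines tested with replicate 4 was called.

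Genes of the cell cycle were higher in CD8+ TILs. Of 30 proliferation genes, 24 were called higher in CD8+ and 0 higher in CD4+ TILs without replicate 4, with a median log2 fold change of 1.33, and 3 were called with it, with a median of 1.43. Their summed level was 2323 to 3857 CPM in CD8+ and 995 to 2008 CPM in CD4+ libraries, with no overlap. *Mcm3*, a subunit of the replicative helicase, measured 199, 204, 307 and 285 CPM in CD8+ and 66.8, 61.4, 83.5 and 217 CPM in CD4+ replicates 1 to 4. Replicate 4 lay between the lowest and the highest CD8+ libraries for *Mcm3*, and its log2 fold change was 1.78 ± 0.18 without and 1.21 ± 0.41 with that library.

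Nucleolar genes differed in nearly every member. Of 35 ribosome biogenesis genes, a list chosen after its values were seen, 30 were higher in CD8+ and 0 higher in CD4+ TILs without replicate 4, with a median of 1.13, and 12 were higher in CD8+ TILs with it, with a median of 1.27. *Fbl* (fibrillarin), the rRNA methyltransferase, measured 95.4, 105, 101 and 94.3 CPM in CD8+ and 29.3, 31.6, 31.0 and 33.8 CPM in CD4+ replicates 1 to 4. It had little spread in either lineage and a log2 fold change of 1.64 ± 0.15 (adjusted p = 0.0017). *Rrs1*, a ribosome assembly factor, was 1.72 ± 0.25 higher (adjusted p = 0.012). The summed level of the list was 7184 to 7775 CPM in CD8+ libraries, 3702 to 4090 CPM in CD4+ replicates 1 to 3 and 7871 CPM in CD4+ replicate 4, which lay above every CD8+ library. All 8 subunits of the cytosolic chaperonin, also chosen after their values were seen, were higher in CD8+ TILs without replicate 4 (median 0.73) and 1 was with it, with *Cct3* at 165, 162, 169 and 179 CPM in CD8+ and 69.4, 79.1, 84.0 and 88.1 CPM in CD4+ libraries. *Myc*, an activator of ribosome biogenesis genes, was 1.81 ± 0.13 higher in CD8+ TILs without replicate 4 (adjusted p = 1.2e-05), with 116 to 137 CPM against 29.1 to 39.7 CPM, and replicate 4 had 6.82 CPM.

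Mitochondrial and glycolytic genes differed by smaller amounts. Of 29 genes of oxidative phosphorylation, 21 were higher in CD8+ and 0 higher in CD4+ TILs without replicate 4 (median 0.55) and 1 was with it, and their summed level was 2894 to 3040 CPM against 1983 to 2122 CPM over all 8 libraries. *Atp5b*, the catalytic subunit of ATP synthase, measured 445, 442, 470 and 462 CPM in CD8+ and 263, 260, 270 and 280 CPM in CD4+ replicates 1 to 4, a log2 fold change of 0.75 ± 0.09 (adjusted p = 0.0064). Of 21 glycolysis genes, 9 were higher in CD8+ and 2 higher in CD4+ TILs without replicate 4 (median 0.25), and *Eno1* was the 1 called over all 8 libraries (0.68 ± 0.11, adjusted p = 0.019). *Bcl2*, which blocks mitochondrial apoptosis, measured 745, 779, 717 and 766 CPM in CD8+ and 183, 185, 221 and 70.6 CPM in CD4+ libraries, a log2 fold change of 2.17 ± 0.32 (adjusted p = 0.013).

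**Figure D3:**
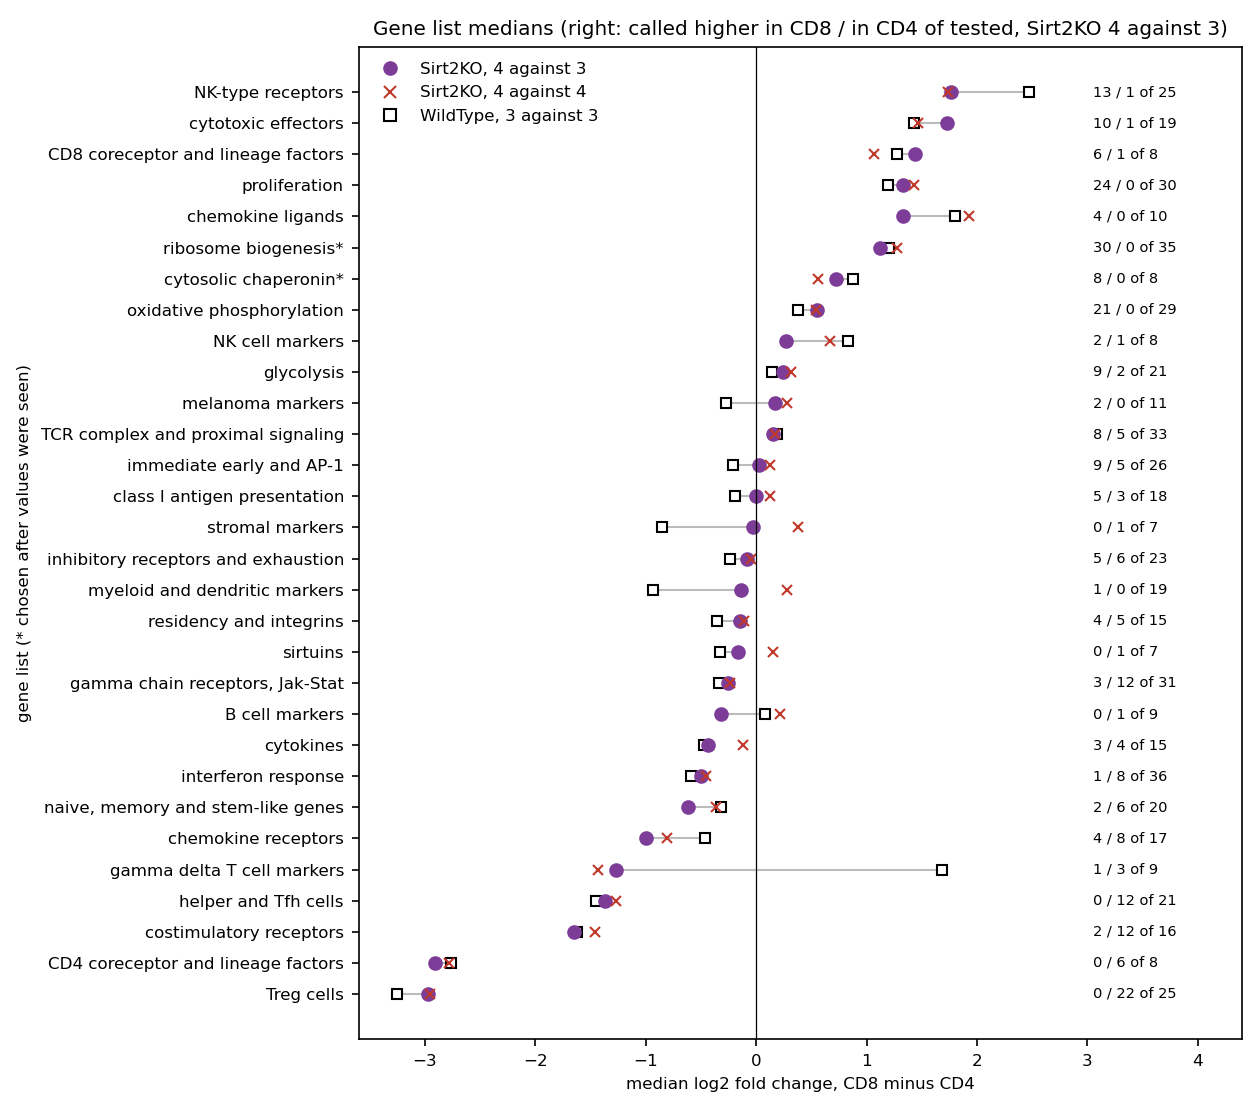
Median log2 fold change of CD8+ over CD4+ TILs for each gene list, in Sirt2KO with all 8 libraries, in Sirt2KO without CD4+ replicate 4 and in WildType without its 2 libraries with few detected genes. Treg and CD4 lineage lists have the lowest medians (-2.97 and -2.91 in Sirt2KO without replicate 4), NK-type receptors and cytotoxic effectors the highest (1.76 and 1.73), and the numbers at the right give members called higher in CD8+, higher in CD4+ and tested without replicate 4.

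CD4+ Sirt2KO TILs had higher levels of Treg, helper and costimulatory genes. Of 25 Treg genes tested without replicate 4, 22 were higher in CD4+ and 0 higher in CD8+ TILs, with a median of -2.97, and 14 of 24 were called with it, with a median of -2.95. *Ctla4*, the inhibitory receptor for CD80 and CD86, measured 148, 368, 345 and 668 CPM in CD4+ and 10.3, 21.1, 11.9 and 21.8 CPM in CD8+ replicates 1 to 4, a log2 fold change of -4.56 ± 0.50 (adjusted p = 0.0040). *Il2ra* (CD25), the high-affinity chain of the IL-2 receptor, measured 382, 605, 750 and 1005 CPM in CD4+ and 78.7, 81.2, 69.4 and 152 CPM in CD8+ libraries (-2.86 ± 0.36, adjusted p = 0.0067). In both genes CD4+ replicate 1 was the lowest and replicate 4 the highest CD4+ library, without overlap with CD8+ libraries. *Lrrc32* (GARP) and *Itgb8*, which present and activate TGF-beta, were -4.91 ± 0.64 and -5.71 ± 0.72. The summed Treg list was 2615 CPM in CD4+ replicate 1, 4916 to 5367 CPM in the other CD4+ libraries and 743 to 1054 CPM in CD8+ libraries.

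Helper and costimulatory genes were lower in CD8+ TILs with more dependence on replicate 4. Without it, 12 of 21 helper and follicular helper genes were higher in CD4+ and 0 higher in CD8+ TILs (median -1.37), and with it 4 were called. *Cd40lg*, the signal of helper cells to B and dendritic cells, measured 43.8, 36.3, 28.3 and 0 CPM in CD4+ and 0.203, 0.666, 0.223 and 0.423 CPM in CD8+ replicates 1 to 4. Its log2 fold change was -6.63 ± 0.36 (adjusted p = 6.4e-06) without replicate 4, and with it *Cd40lg* was not called (adjusted p = 0.17). *Bcl6*, the factor of follicular helper cells, behaved alike, with 37.3, 20.96, 16.2 and 0 CPM in CD4+ libraries and -3.41 ± 0.34 without replicate 4. Of 16 costimulatory receptors, 12 were higher in CD4+ TILs without replicate 4 and 2, *Cd226* and *Slamf7*, were higher in CD8+ TILs, and with it 4 were called, all higher in CD4+ TILs. *Tnfrsf4* (OX40) measured 147, 306, 327 and 282 CPM in CD4+ and 11.9, 18.9, 18.9 and 21.2 CPM in CD8+ libraries (-3.92 ± 0.31, adjusted p = 0.0014). *Icos* was -2.52 ± 0.36 over all 8 libraries, and *Cd28*, at 221, 230, 216 and 37.7 CPM in CD4+ libraries, was -1.63 ± 0.14 without replicate 4.

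Among genes of cytokine receptors and chemokine receptors, more were called higher in CD4+ than in CD8+ TILs. Of 31 genes of the common gamma chain receptors and the Jak-Stat pathway, 12 were higher in CD4+ and 3 higher in CD8+ TILs without replicate 4, and 5 were higher in CD4+ TILs with it. *Stat5b*, which transduces IL-2 signals, measured 305, 397, 383 and 305 CPM in CD4+ and 144, 139, 131 and 134 CPM in CD8+ replicates 1 to 4 (-1.36 ± 0.13, adjusted p = 0.0023). *Socs2*, a feedback inhibitor of STAT5, was -3.35 ± 0.33 (adjusted p = 0.0028). Of 17 chemokine receptors, 8 were higher in CD4+ and 4 higher in CD8+ TILs without replicate 4, and with it 3 and 1 of 16 were. *Ccr4*, the receptor for CCL17 and CCL22, measured 25.4, 67.8, 58.1 and 5.84 CPM in CD4+ and 0.712, 1.04, 0.507 and 2.90 CPM in CD8+ libraries (-4.95 ± 1.002, adjusted p = 0.045). *Cxcr6*, a receptor of resident T cells, was 1.30 ± 0.24 higher in CD8+ TILs (adjusted p = 0.033), and *Cxcr4* was -1.70 ± 0.31 (adjusted p = 0.034). Among residency genes and integrins, 4 of 15 were higher in CD8+ TILs without replicate 4, with *Itga1* (CD49a) at 2.07 ± 0.22, and 5 were higher in CD4+ TILs, with *Rgs1* at -1.44 ± 0.20. With replicate 4, 2 were called, both higher in CD4+ TILs.

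The genes with the largest changes over all 8 libraries included several outside these lists. On the CD4+ side these were the sialyltransferase *St8sia6* (-6.41 ± 0.96), the leukotriene receptor *Cysltr1* (-5.37 ± 0.94), the methionine sulfoxide reductase *Msrb3* (-5.15 ± 0.62), the motor protein *Myo1d* (-4.90 ± 0.93) and *Vill* (-4.70 ± 0.87). *St8sia6* measured 265, 86.6, 79.5 and 120 CPM in CD4+ and 4.11, 0.296, 1.52 and 0.584 CPM in CD8+ replicates 1 to 4. On the CD8+ side these were the lipid flippase *Atp8b4* (2.53 ± 0.18), the kinase *Lrrk1* (2.53 ± 0.39), the semaphorin *Sema4a* (2.38 ± 0.19), the junctional adhesion molecule-like *Jaml* (2.31 ± 0.18) and the chondroitin synthase *Chsy1* (2.31 ± 0.33). All 10 were also called without replicate 4, and the largest changes in CD4+ TILs exceeded those in CD8+ TILs in size apart from the CD8 chains.

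Genes of TCR signaling and of inhibition went in both directions. Of 33 genes of the TCR complex and proximal signaling, 8 were higher in CD8+ and 5 higher in CD4+ TILs without replicate 4 (median 0.16), and 1 and 2 with it. Of all genes tested without replicate 4, 13.8% were higher in CD8+ and 11.6% higher in CD4+ TILs. Nothing is read from the numbers of called members in this paragraph. *Lck*, the kinase that starts TCR signaling, measured 443, 479, 437 and 383 CPM in CD8+ and 314, 265, 287 and 185 CPM in CD4+ replicates 1 to 4. The lineages did not overlap in *Lck*, with a log2 fold change of 0.56 ± 0.11 (adjusted p = 0.0032) without and 0.72 ± 0.18 (adjusted p = 0.093) with replicate 4. *Txk*, a Tec family kinase, measured 134, 185, 125 and 168 CPM in CD8+ and 82.3, 79.5, 74.6 and 101 CPM in CD4+ libraries (0.84 ± 0.17, adjusted p = 0.041). *Cd247* (the zeta chain) was -0.56 ± 0.11 and *Dgka*, which removes diacylglycerol, -1.20 ± 0.22 over all 8 libraries. Of 23 inhibitory and exhaustion genes, 5 were higher in CD8+ TILs without replicate 4, among them *Havcr2* (TIM-3, 1.25 ± 0.31) and *Cd244a* (3.97 ± 0.61), and 6 were higher in CD4+ TILs, among them *Cd5* (-1.49 ± 0.11) and *Tigit* (-1.32 ± 0.29). With replicate 4, 3 of them were called, all higher in CD4+ TILs. Among 26 immediate early and AP-1 genes, 9 were higher in CD8+ and 5 higher in CD4+ TILs without replicate 4, with *Irf8* at 1.38 ± 0.15 and the ERK phosphatase *Dusp4* at -3.27 ± 0.46, and with replicate 4 these counts were 1 and 3 of 25.

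All genes tested without replicate 4 split as 13.8% called higher in CD8+ and 11.6% called higher in CD4+ TILs. The called interferon-response genes split otherwise. The list was given no test, and nothing is read from the number called in it or among the sirtuins. Of 36 interferon-response genes, 8 were higher in CD4+ and 1, *Mx1* (1.30 ± 0.31), was higher in CD8+ TILs without replicate 4 (median -0.50). Called or not, 28 of these 36 genes had a negative log2 fold change, against 8397 of 16703 genes tested. The summed interferon list measured 7477, 5699, 3466 and 5528 CPM in CD8+ and 9353, 7318, 6906 and 9202 CPM in CD4+ replicates 1 to 4. The ranges overlapped. Each CD4+ library lay above the CD8+ library of the same number. Whether such libraries share a source is not given, so that nothing is read from that order. With replicate 4, none of these 36 genes was called by edgeR. Of 20 naive, memory and stem-like genes, 6 were higher in CD4+ and 2 in CD8+ TILs without replicate 4 and 1 each with it, and of 18 class I presentation genes 3 and 5 without it and 0 with it. Of 7 sirtuins, *Sirt1* was called higher in CD4+ TILs without replicate 4 (-0.44 ± 0.12, adjusted p = 0.019), at 40.0 to 53.5 CPM in CD8+ libraries and 58.4, 65.8, 59.2 and 0.179 CPM in CD4+ replicates 1 to 4.

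Promoters of the called genes were searched for the letters of motifs of lineage factors, in the RefSeq table of 250 bases before to 50 after each start (GRCm38.p6), on both strands. Of the genes called without replicate 4, 74.8% of those higher in CD8+ and 74.9% of those higher in CD4+ TILs had an entry, against 62.9% of genes tested. The sequences of 4 named genes, picked because they hold such letters, are shown for where these lie. Each is given as the 250 bases before the start, 5′ to 3′ on the strand of the gene, with matches in capitals. *Prf1* (chr10:61297586-61297835, + strand) has 1 match of TGTGGT (RUNX), on the reverse strand. *Gbp3*, an interferon-induced GTPase (chr3:142559794-142560043, + strand), has 1 match of TGTTTAC (forkhead) on the reverse strand and 2 of GGAAAA (NFAT), 1 on each strand. *Junb*, an AP-1 subunit (chr8:84978749-84978998, - strand), and *Prdm1* (chr10:44458749-44458998, - strand) have 1 forkhead match each, on the forward and reverse strand, respectively.
Prf1: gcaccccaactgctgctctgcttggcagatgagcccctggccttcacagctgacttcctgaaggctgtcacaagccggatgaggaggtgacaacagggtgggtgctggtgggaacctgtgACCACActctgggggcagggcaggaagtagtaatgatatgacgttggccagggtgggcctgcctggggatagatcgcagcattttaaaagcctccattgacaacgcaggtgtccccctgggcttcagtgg
Gbp3: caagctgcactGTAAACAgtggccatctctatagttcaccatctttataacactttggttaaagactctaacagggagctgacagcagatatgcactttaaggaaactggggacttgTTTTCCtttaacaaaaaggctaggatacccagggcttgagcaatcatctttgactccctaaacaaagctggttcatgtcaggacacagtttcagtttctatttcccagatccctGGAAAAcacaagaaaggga
Junb: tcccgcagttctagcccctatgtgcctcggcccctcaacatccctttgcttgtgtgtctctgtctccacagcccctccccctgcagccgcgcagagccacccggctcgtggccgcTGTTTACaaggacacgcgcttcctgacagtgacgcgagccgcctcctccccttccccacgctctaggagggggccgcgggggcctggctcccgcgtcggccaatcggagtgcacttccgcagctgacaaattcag
Prdm1: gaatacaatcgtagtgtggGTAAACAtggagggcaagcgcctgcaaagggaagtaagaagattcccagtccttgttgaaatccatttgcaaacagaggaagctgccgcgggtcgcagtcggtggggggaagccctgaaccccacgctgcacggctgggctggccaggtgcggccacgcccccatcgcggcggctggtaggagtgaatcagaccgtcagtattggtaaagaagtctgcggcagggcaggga

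*Prf1* was higher in CD8+ TILs (above), and the 3 genes with forkhead letters were higher in CD4+ TILs without replicate 4. The 4 genes were picked for their letters with their direction known. Nothing is therefore read from how letters and direction go together in them. *Gbp3* measured 400, 359, 380 and 888 CPM in CD4+ and 269, 206, 158 and 181 CPM in CD8+ replicates 1 to 4 (-0.94 ± 0.16, adjusted p = 0.0019). *Junb* measured 112, 146, 124 and 85.9 CPM in CD4+ and 65.3, 69.9, 50.9 and 76.3 CPM in CD8+ libraries (-0.99 ± 0.14, adjusted p = 0.00070). Over all called genes, forkhead letters were in 4.42% of promoters of genes higher in CD4+, 1.89% of those higher in CD8+ and 2.59% of those of all genes tested. With replicate 4, these shares were 4.98%, 1.46% and 2.6%, and the share was 3.65% over all promoters in the table. RUNX letters were in 14.2%, 13.3% and 13.3% of promoters of genes higher in CD8+, higher in CD4+ and tested without replicate 4. T-box letters (TCACACC) were in 3.08% of promoters of genes higher in CD8+, 3.29% of those higher in CD4+ and 3.47% of those tested. GATA letters (AGATAA) were in 5.4%, 5.96% and 6.71%. Half-sites of *Maf* proteins (TGCTGAC) were in 3.22%, 3.85% and 3.7%, and NFAT letters in 20.4%, 19.7% and 20.8%. A match is a description of the letters in this window and was given no test.

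The same contrast was fitted in WildType TILs, whose libraries were not shared with the Sirt2KO contrast. Over all 8 WildType libraries, 728 of 14892 genes were higher in CD8+ (4.89%) and 1037 higher in CD4+ TILs (6.96%). Without the 2 WildType libraries with fewer than 15000 detected genes, 2331 of 15694 were higher in CD8+ (14.9%) and 2063 higher in CD4+ TILs (13.1%). Set against each other without the libraries with few genes, and over the 15323 genes tested in both genotypes, 1741 genes were higher in CD8+ TILs of both genotypes, which is 76.5% of 2277 Sirt2KO and 75.1% of 2318 WildType calls. In CD4+ TILs 1395 were shared, 73.2% of 1906 and 68.3% of 2043 calls. No gene was called in opposite directions. The Sirt2KO calls had the same sign in WildType for 99.4% of genes higher in CD8+ and 98.8% of genes higher in CD4+ TILs, and Pearson's r across genes was 0.754, where genes are not independent replicates. Over all 16 libraries the shared calls were 113 higher in CD8+ TILs (83.7% of 135 Sirt2KO and 15.6% of 724 WildType calls) and 194 higher in CD4+ TILs (92.8% of 209 and 18.9% of 1028).

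The largest list medians kept their sign in WildType TILs, with values given here without the libraries with few genes. The median of the gamma delta list, described below, did not, over 9 members tested in Sirt2KO and 7 in WildType. The summed gamma delta list averaged higher in CD8+ than in CD4+ TILs in both genotypes. The Treg median was -2.97 in Sirt2KO and -3.25 in WildType, the CD4 lineage median -2.91 and -2.77, the cytotoxic median 1.73 and 1.43, the proliferation median 1.33 and 1.19 and the ribosome biogenesis median 1.13 and 1.21. For NK-type receptors the median was 1.76 in Sirt2KO and 2.47 in WildType TILs, with 13 of 25 and 17 of 26 called higher in CD8+ TILs. For interferon-response genes 8 were called higher in CD4+ TILs in Sirt2KO and 20 in WildType, at medians of -0.50 and -0.59. Genes called in 1 genotype and not in the other were 536 and 511 (higher in CD8+ and in CD4+ TILs) in Sirt2KO and 577 and 648 in WildType. Of these, 43 and 23 of the former and 85 and 76 of the latter had an unadjusted p under 0.05 in the test of the difference itself, as did 664 of all 17993 genes tested. The former and the latter were picked for a call in 1 genotype only, so that nothing is read from these counts.

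**Figure D4:**
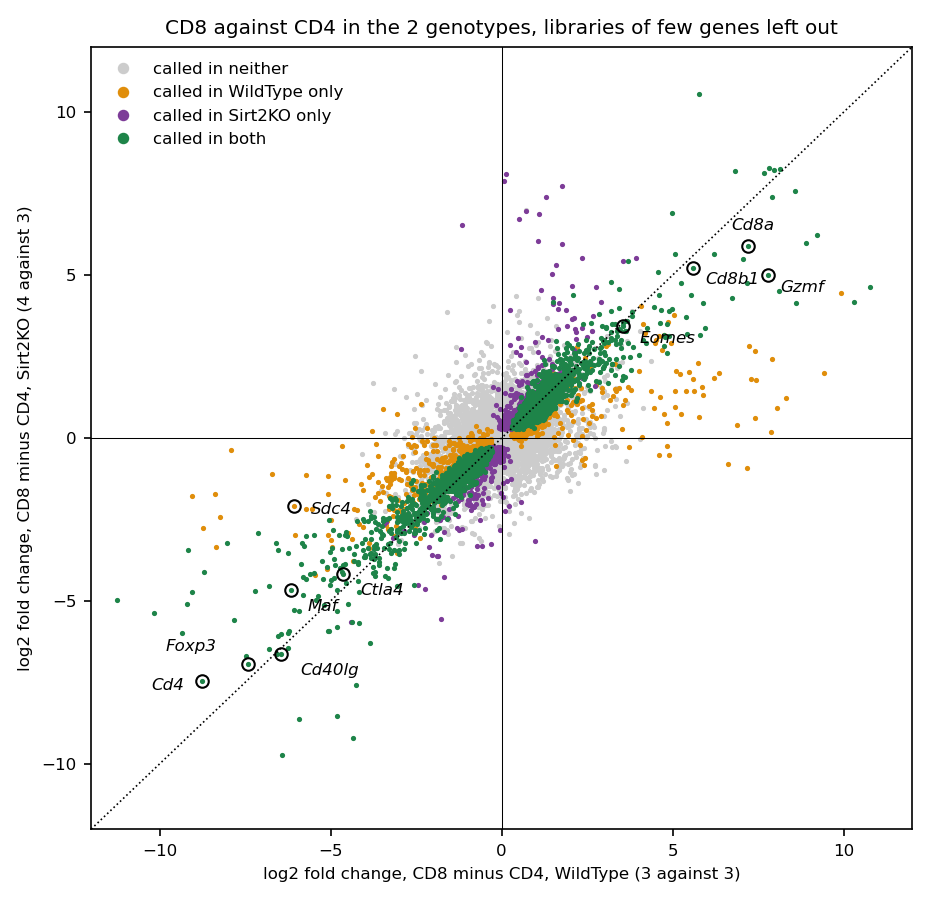
Log2 fold change of CD8+ over CD4+ TILs in Sirt2KO (vertical) against WildType (horizontal), without the libraries with few genes, 1 point per gene tested in both, coloured by the genotypes in which it was called. Genes called in both lie in the same quadrants along the dotted line of equality (r = 0.754 over all points), and *Maf* (-4.65 and -6.16) and *Cd4* (-7.47 and -8.77) lie off it on the side of a smaller difference in Sirt2KO.

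The difference between the genotypes in the lineage contrast was tested over all 16 libraries, and 0 of 17270 genes passed (0%) by edgeR's quasi-likelihood test, with 342 at an unadjusted p under 0.05 and a smallest adjusted p of 0.76. No lineage difference was therefore called gained or lost. DESeq2 called 2 genes, *Maf* and *Prss30*, and limma-voom 0. Without the 3 libraries with few genes edgeR called 0 of 17993, with 664 at an unadjusted p under 0.05, DESeq2 called 6 and limma-voom 0. Genes called in Sirt2KO without replicate 4 and not in the 8 WildType libraries, taken by smallest p, were *Shmt1*, *Ppan*, *Fam71b*, *Nifk* and *Hist2h2ac*, and all 5 were also called in WildType once its libraries with few genes were left out. Those called in WildType and in neither Sirt2KO fit were *Sdc4*, *Eea1*, *Nrp1*, *Mdfic* and *Lrig1*. *Nrp1*, a semaphorin coreceptor of Treg cells, was -0.93 ± 0.36 in Sirt2KO (adjusted p = 0.11 without replicate 4) and -1.28 ± 0.11 in WildType TILs.

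*Maf* had the smallest p of all genes for the difference by edgeR. Over all 16 libraries it ranked 2 by DESeq2 and 4 by limma-voom. In WildType TILs it measured 437, 333, 328 and 267 CPM in CD4+ and 1.97, 3.89, 4.84 and 4.32 CPM in CD8+ replicates 1 to 4, so that the 4 Sirt2KO CD8+ libraries (10.2 to 15.1 CPM) lay above the 4 WildType CD8+ libraries. The CD4+ libraries of the genotypes overlapped. In the fits without the libraries with few genes, the lineage difference was 25.2-fold in Sirt2KO and 71.5-fold in WildType TILs. Over all 16 libraries, the difference between the genotypes was 1.86 ± 0.34 on the log2 scale (unadjusted p = 4.4e-05, adjusted p = 0.76 by edgeR, 0.013 by DESeq2). Without the libraries with few genes it was 1.53 ± 0.25 (unadjusted p = 1.4e-05, adjusted p = 0.245 by edgeR, 3e-04 by DESeq2).

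For some other genes of the CD4 program the CD8+ share was higher in Sirt2KO, by differences that did not pass adjustment over all genes. Without the libraries with few genes, the CD8+ level as a percentage of the CD4+ level was 4.07 in Sirt2KO and 1.41 in WildType for *Maf*, 0.578 and 0.231 for *Cd4*, 5.07 and 2.72 for *Izumo1r* (folate receptor 4 of Treg and anergic cells), 6.8 and 3.41 for *Tnfrsf4* and 0.842 and 0.594 for *Foxp3*. It was not higher in Sirt2KO for *Zbtb7b* (11.4 and 12.4) or *Cd40lg* (1.05 and 1.16). In the other direction, the CD4+ level of *Cd8a* was 1.66% of its CD8+ level in Sirt2KO and 0.683% in WildType TILs, where CD4+ Sirt2KO replicate 3 stood apart (33.4 CPM, against 10.2 and 11.3 CPM in replicates 1 and 2), and that of *Cd8b1* was 2.61% and 2.06%. The unadjusted p of the difference over all 16 libraries was 0.043 for *Cd4*, 0.12 for *Cd8a*, 0.072 for *Foxp3*, 0.021 for *Tnfrsf4* and 0.014 for *Izumo1r*. The part of RNA from the other lineage in these shares was not tested.

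**Figure D5:**
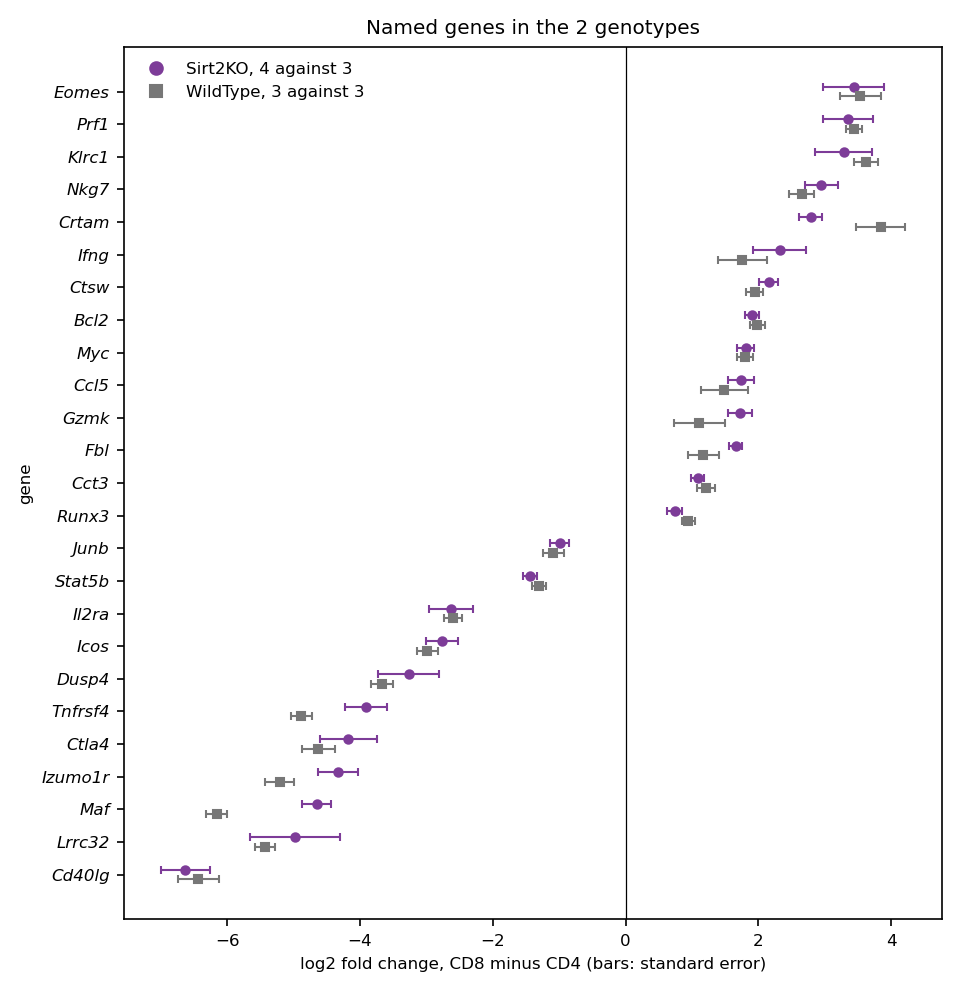
Log2 fold change of CD8+ over CD4+ TILs (with SE) of genes named in the text, in Sirt2KO without CD4+ replicate 4 and in WildType without its 2 libraries with few detected genes. The bars overlap for genes such as *Eomes*, *Prf1*, *Bcl2* and *Il2ra*, and they do not for *Maf* (-4.65 and -6.16), *Tnfrsf4* (-3.91 and -4.88), *Izumo1r* (-4.33 and -5.21) or *Crtam* (2.79 and 3.84). Overlap of SE bars is not a test of the difference, for which edgeR called no gene, and *Crtam* was chosen after its values were seen.

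Among the other genes with the smallest p for the difference, *Igfbp4*, which binds insulin-like growth factors, was the 1 besides *Maf* that reached 50 CPM. It measured 132, 115, 84.0 and 49.5 CPM in CD8+ and 84.8, 74.1, 67.6 and 83.7 CPM in CD4+ Sirt2KO libraries, which overlapped. In WildType it measured 61.0 to 92.3 CPM in CD8+ and 12.5 to 29.0 CPM in CD4+ libraries, which did not. The difference was -1.44 ± 0.40 (unadjusted p = 0.0023). *Sdc4*, a heparan sulfate proteoglycan, had 1.12 to 10.5 CPM in CD8+ Sirt2KO and 0.159 to 0.508 CPM in CD8+ WildType libraries, against 9.51 to 30.2 CPM in CD4+ WildType and 11.7, 18.7, 28.3 and 0 CPM in CD4+ Sirt2KO libraries (difference 4.33, unadjusted p = 0.023). *Prss30*, a serine protease, had 0.508 to 1.78 CPM in CD8+ and at most 0.022 CPM in CD4+ Sirt2KO libraries, against at most 0.508 CPM in CD8+ and 0.174 to 1.34 CPM in CD4+ WildType libraries. The others, *Trav15-2-dv6-2*, *Syt6*, *n-R5s69*, *Adam21*, *3830432H09Rik*, *Gm49312* and *Spata24*, were under 10 CPM in most libraries and were high in 1 library with few genes or at or near 0 in 1 or more groups.

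Among genes chosen after their values were seen, *Txk*, *Crtam*, *Btla* and *Ifi44* had unadjusted p values under 0.02 for the difference without the libraries with few genes. The lineage difference of *Txk* was 0.92 in Sirt2KO and 1.55 in WildType on the log2 scale (unadjusted p = 0.0048 by edgeR for the difference), and that of *Crtam* was 2.79 and 3.84 (unadjusted p = 0.016 by edgeR). *Btla*, an inhibitory receptor, was -0.56 and 0.18 (unadjusted p = 0.0049 by edgeR), and *Ifi44*, an interferon-induced gene, was -1.28 and -2.60 (unadjusted p = 0.0091 by edgeR). None passed adjustment over all genes. Of all 17993 genes tested in that fit, 664 had an unadjusted p under 0.05. Since the 4 genes were picked from these same data, nothing is read from their p values.

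Some gamma delta T cell genes were at higher levels in CD4+ Sirt2KO than in CD4+ WildType libraries, and none passed adjustment for the difference between genotypes. *Trdc*, the constant region of the TCR delta chain, measured 23.1, 24.8, 37.2 and 49.01 CPM in CD4+ and 6.65, 10.04, 9.10 and 22.4 CPM in CD8+ Sirt2KO replicates 1 to 4. In WildType it measured 1.26, 9.25, 6.997 and 2.37 CPM in CD4+ and 6.95 to 13.7 CPM in CD8+ libraries. CD4+ Sirt2KO libraries lay above all CD8+ Sirt2KO and all CD4+ WildType libraries, and the lineage difference of *Trdc* was -1.27 ± 0.40 in Sirt2KO (adjusted p = 0.051 without replicate 4) and 0.78 in WildType TILs (difference -2.54 over all 16 libraries, unadjusted p = 0.012). Of 9 gamma delta markers tested without replicate 4, 3 were higher in CD4+ and 1, *Tcrg-C2*, was higher in CD8+ Sirt2KO TILs (3.39 ± 0.56), with a list median of -1.27, against 3 higher in CD8+ and 2 higher in CD4+ of 7 tested in WildType TILs, with a median of 1.68. With replicate 4, edgeR called none of the 9 in Sirt2KO. *Trdv4*, a variable segment of that chain, was higher in CD4+ TILs (-3.46 ± 0.32), with 11.3, 17.0, 14.2 and 22.0 CPM in CD4+ and 0.790 to 1.95 CPM in CD8+ Sirt2KO libraries. The summed list was 66.8 to 113 CPM in CD4+ Sirt2KO and 18.03 to 35.2 CPM in CD4+ WildType libraries, which did not overlap, and 99.9 to 234 against 113 to 144 CPM in CD8+ libraries, which did. By this sum the lineages overlapped in Sirt2KO, with means of 156.7 CPM in CD8+ and 96.79 CPM in CD4+ libraries. In WildType the CD8+ libraries lay above the CD4+ libraries. The list medians above, over 9 and 7 members, therefore do not show that the whole list changed direction. In CD4+ libraries the genotypes also overlapped in *Tcrg-C1* (0.107 to 22.9 and 0 to 9.22 CPM) and *Tcrg-C2* (4.44 to 41.4 and 3.48 to 22.0 CPM).

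Markers of other cells that a tumor digest could hold were at low levels. In Sirt2KO libraries the melanoma list summed to 30.3 to 46.3 CPM in CD8+ and 23.3 to 81.5 CPM in CD4+ TILs, led by *Kit*, with the pigment genes *Pmel*, *Mlana* and *Tyrp1* at 0 to 2.86 CPM. The pigment gene *Dct* was at 27.5 CPM in CD4+ replicate 4 and at 1.74 to 5.32 CPM in the other Sirt2KO libraries. The myeloid and dendritic list summed to 37.8 to 123 and 47.2 to 223 CPM, led by *Cd74*, with *Csf1r* at 0 to 5.26 CPM. The stromal list summed to 41.0 to 130 and 64.5 to 194 CPM, led by *Pecam1*, which was higher in CD4+ TILs without replicate 4 (-1.21 ± 0.24). In each of these lists the 2 lineages overlapped, and CD4+ replicate 4 had the highest melanoma and myeloid sums. The B cell list was higher in CD4+ libraries (84.1 to 194 against 44.8 to 69.9 CPM), through *Ighm* (-1.36 ± 0.27, adjusted p = 0.041). The NK list was higher in CD8+ libraries (263 to 517 against 41.3 to 82.7 CPM), led by *Eomes*, with *Ncr1* at 0 to 3.28 CPM. The part of these cells in the lineage differences was not tested.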

How the data were processed

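Stranded total RNA libraries of 4 groups were sequenced, and the authors deposited raw counts per gene for the 16 libraries in 1 table. The submitters' processing notes name STAR, HTSeq and mm10, and the strand setting of the counting is not given in the sources used here, so that overlapping and antisense genes are uncertain. All 55450 gene identifiers, versions included, are those of GENCODE mouse release 21. Total counts were 28000949 to 62407851 per library.

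The quasi-likelihood test of edgeR 4.0.16 in R 4.3.3 was used on the counts (two-sided, TMM scaling, filterByExpr by group, robust dispersions, Benjamini-Hochberg adjusted over all genes tested, threshold 0.05). Log2 fold changes are CD8+ over CD4+, with SE from the F statistic. Sirt2KO and WildType were fitted separately, and the difference between them over 4 groups. Totals and detected genes were compared by exact permutation of 70 assignments. Functions were tested on simulated data with 200 changed genes.

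Members and gene lists were chosen with earlier results of these data known, and lists are described without a test. Named genes are the lineage markers, the called genes with the largest changes at a mean of at least 10 CPM whose groups do not overlap (10 per direction over all 8 libraries, 5 without CD4+ replicate 4; segments and clone names left out), up to 4 called members per list and direction, the 5 smallest p per direction for the difference, and the 5 smallest p among genes called in 1 genotype only.

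Alternatives were DESeq2 1.42.0, limma-voom 3.58.1 with quality weights, other scalings, filters and thresholds, a replicate block, 1 model for all libraries, omission of receptor segments, and leaving out each library. Promoter sequences are those of RefSeq (GRCm38.p6).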

Additional observations from a re-analysis of the deposited data

Results flagged for a closer look

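Of 38 sets of 4 libraries examined, 6 held a library whose gap to the nearest other library took up more of the range than Dixon's 95% critical value allows, where chance gives about 1 in 20, or 1.9 sets. In 3 of these the library was CD4+ Sirt2KO replicate 4. It had 8169 genes with a count, against 19159 to 20310 in the other CD4+ Sirt2KO libraries, a Shannon entropy of *Trbv* gene usage of 0.8286 bits, against 3.77 to 3.80 bits, and a *Sirt2* level of 0 CPM, against 10.2 to 12.2 CPM. By counting error alone, a 0 among 62407851 counts allows up to 3 counts. Replicate 4 also had 0 counts for *S100a6* and *Ly6c2*, whose means over the other Sirt2KO libraries were 6959 and 6908 counts. Its 0 therefore sets no bound on the *Sirt2* level.

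In the other sets, CD4+ Sirt2KO replicate 1 had a summed Treg list of 2615 CPM, against 4916 to 5367 CPM in the other CD4+ libraries, and CD4+ Sirt2KO replicate 3 had *Cd8a* at 33.4 CPM, against 10.2 to 14.1 CPM. CD8+ Sirt2KO replicate 4 had a summed NK marker list of 516.9 CPM, against 262.5 to 272.4 CPM in the other CD8+ libraries, and its *Eomes* level of 404 CPM, against 209 to 232 CPM, is part of that sum. What sets these libraries apart was not tested.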

How the results depend on the processing

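The number of genes called over all 8 Sirt2KO libraries depended on the tool and on CD4+ replicate 4. Against 354 genes, DESeq2 called 1339, limma-voom with quality weights 4481, a filter of at least 10 counts in every library 907, an adjusted p below 0.1 616, and a model of all 16 libraries 781. Leaving out each library in turn gave 111 to 4250 genes, with 4250 without CD4+ replicate 4 and 111 to 234 without any of the other 7 (234, 126 and 151 without CD4+ replicates 1 to 3, and 139, 114, 111 and 119 without CD8+ replicates 1 to 4). Without CD4+ replicate 4, against 4250 genes, the model of all 16 libraries, which holds replicate 4, called 781, a model of 15 libraries chosen after seeing the data 1962, and leaving out 1 more library 3143 to 3872. In WildType, against 1765 genes, DESeq2 called 2651, limma-voom 5504, the model of all 16 libraries 811, the omission of both libraries with few genes 4394, and leaving out each library in turn 1022 to 2767 (2767 without CD4+ replicate 1, 1165 without CD4+ replicate 3, and 1047, 1087 and 1022 without CD8+ replicates 2 to 4). For the difference between genotypes, against 0 genes, DESeq2 called 2 and, without the libraries with few genes, 6 (chosen after seeing the data), and leaving out each library in turn gave 0 to 0.

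Library numbers were not used as pairs of lineages. The correlations of same-numbered Sirt2KO libraries' deviations were 0.153, 0.027, -0.017 and -0.022, and those of WildType libraries 0.128, 0.112, 0.138 and 0.098, so that not every pair was over 0.1 in either genotype. These correlations cannot settle whether same-numbered libraries share a source, and the Sirt2KO ones include CD4+ replicate 4 with its few genes. *Ddx3y* measured 22.0, 121, 4.35 and 2.18 CPM in CD4+ and 24.35, 112, 5.49 and 3.39 CPM in CD8+ WildType replicates 1 to 4. The order was the same in both lineages, and in Sirt2KO the gene was at or near 0. *Xist* measured 888.6, 67.42, 841.9 and 559.4 CPM in CD4+ and 1297, 61.65, 1131 and 837.9 CPM in CD8+ WildType replicates 1 to 4, again in the same order. The Y-linked *Kdm5d* was highest in WildType replicate 2 of both lineages (52.26 CPM in CD4+ and 49.3 CPM in CD8+). Whether same-numbered libraries share a source is not given, and the main tests leave out any such pairing. With the number as a replicate block, 108 genes were called over all 8 Sirt2KO libraries, 4524 without CD4+ replicate 4, 1619 in WildType and 0 for the difference. Other scalings (DESeq2's size factors, upper quartile) moved the share of calls higher in CD8+ TILs by under 10 percentage points. In the model of all 16 libraries, 3 genes named without replicate 4 turned direction: *Pgam1* to -0.25, *Sirt1* to 0.004 and *Syt6* to -0.29 on the log2 scale. The cause was not tested. The median of the CD8 lineage list moved from 1.07 to 1.44 without replicate 4, and no other list median moved beyond its spread. For named genes, 191 recomputed values over all 8 libraries lost their call and 724 kept it, and without CD4+ replicate 4 these were 217 and 2482. *Maf* and *Prss30* gained a call for the difference by DESeq2. Genes of few counts in CD4+ replicate 4 cannot be read there, and 0 calls for the difference does not show that the lineages differ alike in both genotypes, since its median SE was 1.41 on the log2 scale, and 0.459 without the libraries with few genes.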
